A study of Mus musculus with 6 samples.

Results

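BC018473, St6galnac2, Cygb, Arhgdia and Cd7 are 5 genes on mouse chromosome 11 that lie within 10 Mb of Sirt7. They were chosen from the 16623 genes of a single-cell RNA sequencing table of mouse liver because earlier looks at the same cells had shown them to differ between wild-type and Sirt7-deleted mice in several cell types. Their difference between the genotypes is therefore given as a description with no test. Of the 200 genes of the table that the GENCODE M21 annotation places within 10 Mb of Sirt7, 194 were left as neighbours once the 5 genes and Sirt7 itself were set aside.

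The libraries came from livers of 3 WT mice and 3 SIRT7 KO mice, all between 5 and 6 months of age. Hepatocytes and nonparenchymal cells were freed with collagenase and mixed before each library was made with a 3′ droplet kit, so that reads come mostly from the 3′ ends of transcripts. After filtering by the authors the table held 11610 cells, with 933 to 1243 cells per WT mouse and 552 to 5609 per SIRT7 KO mouse, from 2511947 to 11069411 unique molecular identifiers (UMIs, 1 per RNA molecule caught) per mouse. SIRT7 KO mouse 3 had the fewest cells and the deepest ones, with a median of 3875 UMIs per cell against 1630 to 2199 in the other 5 mice, and 13 barcodes were shared between libraries. Strain and sex of these mice are not given in the sources used here, and neither are the alleles that the SIRT7 KO mice carry at genes linked to Sirt7. The loss of SIRT7 and any difference in the sequence of the linked chromosome that the SIRT7 KO mice share cannot be told apart in this design.

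The 5 genes have unrelated known roles. Arhgdia encodes a GDP dissociation inhibitor, which holds small GTPases in the cytosol in their inactive form. St6galnac2 encodes a Golgi sialyltransferase that adds sialic acid to O-linked sugar chains of glycoproteins, and BC018473 is a noncoding transcript. Cd7 encodes a surface receptor of T and natural killer (NK) cells, and Cygb encodes cytoglobin, a haem protein known in liver from hepatic stellate cells.

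On the GRCm38 assembly, to which the authors also aligned (mm10), 3 of the genes sit together far from Sirt7 and the other two close to it. Cygb lies at chr11:116645595-116654313 on the minus strand, St6galnac2 at chr11:116675303-116694868 on the minus strand and BC018473 at chr11:116752167-116759373 on the plus strand. Gaps of 20.99 kb and 57.3 kb separate these genes, and the last of them ends 3859 kb before Sirt7. Arhgdia, at chr11:120578104-120581624 on the minus strand, ends 36.75 kb before Sirt7 (chr11:120618372-120625240, minus strand), and Cd7, at chr11:121036747-121039418 on the minus strand, starts 411.5 kb after it. Between BC018473 and Arhgdia lie 3819 kb. BC018473 is of the annotation type antisense, although its body overlaps no other annotated gene. Cygb overlaps Prcd, St6galnac2 overlaps 1810032O08Rik and Cd7 overlaps Gm11775, each on the opposite strand, and a second St6galnac2 gene model lies inside the first. Whether the counting used strand is not given in the sources used here, so values of these 3 genes may include molecules of their partners.

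Cells were clustered without the 200 genes around Sirt7, and clusters were named after markers with the ending "-like". Of 10 clusters, 8 classes held at least 20 cells in at least 2 mice of each genotype and were compared, over 11232 cells and 44 pairs of a mouse and a class. A class led by Cst3, Plac8, S100a4, Napsa, Prss34 and Cd209a held markers of monocytes, dendritic cells and basophils among its leading genes, and it is called Cst3-led. The class called B-like was led by Ly6d, Klk1, Cox6a2 and Siglech, known from plasmacytoid dendritic cells, as well as by the B cell genes Cd79a and Ebf1. Levels are counts per 10000 UMIs of a cell (CP10K), averaged over the cells of a mouse. Sirt7 itself was low in the library of each SIRT7 KO mouse. Over all cells it was at 0.718, 0.512 and 0.546 CP10K in WT mice 1 to 3 and at 0.10, 0.0814 and 0.139 in SIRT7 KO mice 1 to 3, with no overlap. In T-like cells limma gave a log2 difference of -2.45 ± 0.35 (SE) with an adjusted p of 0.00819.

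Of the 40 pairs of a gene and a class, every SIRT7 KO mouse was above every WT mouse in 26 and below in 1 (Cd7 in Cst3-led cells), and the mean was higher in SIRT7 KO mice in 38. Over all genes tested, the share with every SIRT7 KO mouse above every WT mouse was 25.5% in plasma B-like cells, where only 2 mice per genotype had enough cells, 12.4% in B-like and 9.6% in endothelial-like cells, each with 2 SIRT7 KO mice, and 4.25% in Cst3-led, 12.6% in hepatocyte-like 2, 5.18% in T-like, 7.81% in hepatocyte-like 1 and 7.24% in macrophage-like cells. The share with every SIRT7 KO mouse below every WT mouse was 6.93% in Cst3-led cells. Since the genes were chosen for this contrast, nothing is read from the counts. A mean of at least 0.05 CP10K, the lower limit for the fit across genes, was met in 29 of the 40 pairs. The mean log2 difference over the 8 classes, each with equal weight, was 3.35 ± 0.18 (SD between mice) for BC018473, 1.83 ± 0.16 for St6galnac2, 1.42 ± 0.42 for Cd7, 1.11 ± 0.33 for Arhgdia and 0.81 ± 0.04 for Cygb. These sizes are on the log2(CP10K + 0.05) scale, which understates the change of genes near 0.

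**Figure D1:**
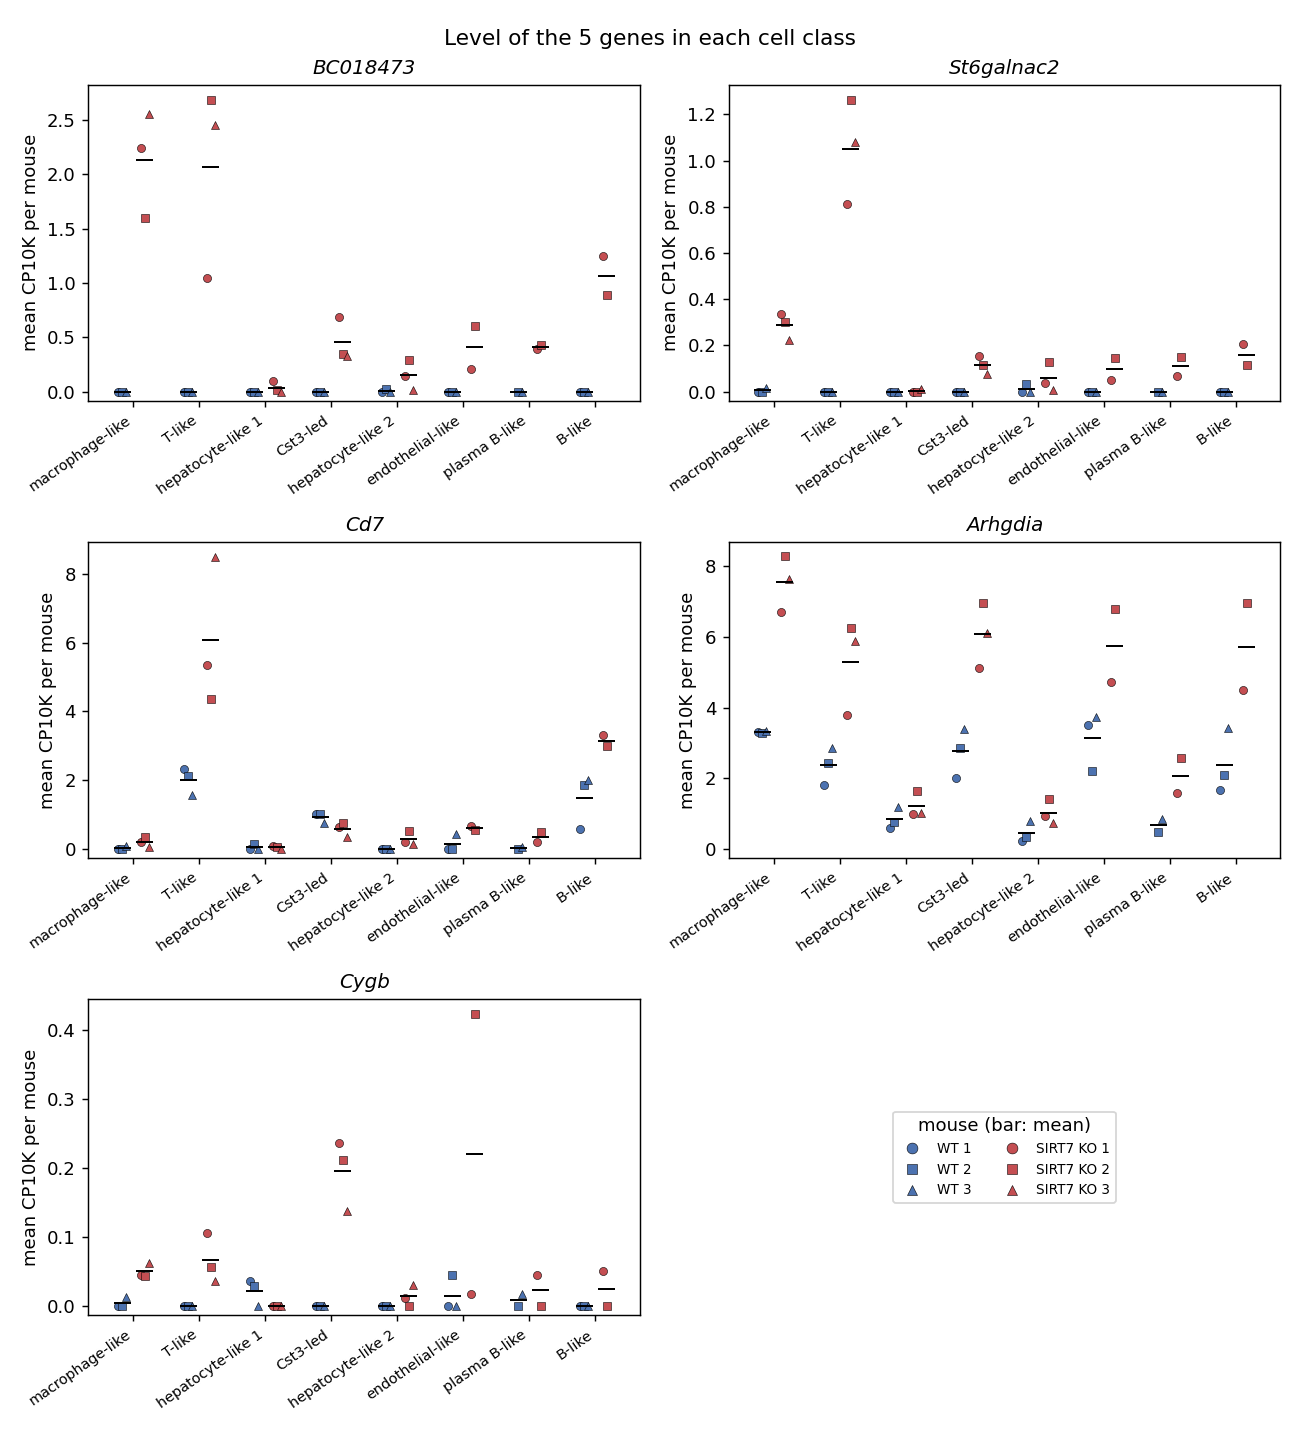
Mean CP10K of the 5 genes (vertical axes, each with its own linear scale) in each mouse with at least 20 cells of a class (horizontal axes). Blue points are WT mice, red points are SIRT7 KO mice, the shape gives the mouse and the bar is the group mean. In T-like cells the 3 red points lie above the 3 blue points in each of the 5 panels, and BC018473 and St6galnac2 are at or near 0 in the WT mice of every class.

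BC018473 was almost absent from WT mice. Over all cells 0, 1 and 0 UMIs were counted in WT mice 1 to 3, against 1775, 836 and 207 in SIRT7 KO mice 1 to 3. The single WT molecule was in a hepatocyte-like 2 cell of WT mouse 2. The longest annotated BC018473 transcript has 4753 bases and a GC content of 45.42%. Its last 240 bases, the part nearest to where a 3′ library is primed, are shown because this RNA was seen almost in a single genotype. Capitals would mark the polyadenylation signals AATAAA and ATTAAA, of which 0 and 0 were found on this strand.
BC018473 transcript end: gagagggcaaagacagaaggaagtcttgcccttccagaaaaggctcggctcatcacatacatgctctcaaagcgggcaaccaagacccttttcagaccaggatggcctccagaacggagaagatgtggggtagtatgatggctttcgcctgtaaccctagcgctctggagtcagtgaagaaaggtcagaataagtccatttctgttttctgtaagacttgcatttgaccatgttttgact

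In macrophage-like cells, which include the Kupffer cells of the liver, BC018473 was at 0 CP10K in the 3 WT mice and at 2.24, 1.6 and 2.55 in SIRT7 KO mice 1 to 3. With 1901 UMIs over the SIRT7 KO mice against 0 over the WT mice, the level was at least 73.0-fold higher, taking 3 UMIs over the WT group as the floor. The share of macrophage-like cells with a BC018473 UMI was 35.8% (95% exact interval 33.9% to 37.6%), 36.4% (32.6% to 40.2%) and 56.0% (44.7% to 66.8%) in SIRT7 KO mice 1 to 3. In WT mice, 0 of 55, 0 of 46 and 0 of 243 cells allow shares of up to 5.45%, 6.52% and 1.23%. These intervals and limits cover counting error only. The high share of SIRT7 KO mouse 3 went with its depth, a median of 6493.5 UMIs per macrophage-like cell against 2097 and 3268.5 in SIRT7 KO mice 1 and 2. After each cell was thinned to 1000 UMIs the shares were 19.8%, 13% and 20%, with 2450, 617 and 80 cells deep enough to be thinned.

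T-like cells held the transcript as well. BC018473 was at 1.05, 2.69 and 2.46 CP10K in SIRT7 KO mice 1 to 3 and at 0 in each WT mouse, at least 87.7-fold higher over 473 UMIs. SIRT7 KO mouse 1 was the lowest of the 3 here. In Cst3-led cells the levels were 0.686, 0.346 and 0.331 CP10K against 0, at least 20.9-fold higher over 111 UMIs, and in the B-like cells of SIRT7 KO mice 1 and 2 they were 1.24 and 0.888 CP10K against 0, at least 8.25-fold higher over 52 UMIs. Both SIRT7 KO mice with enough endothelial-like cells (0.212 and 0.605 CP10K) and both with enough plasma B-like cells (0.393 and 0.429 CP10K) were above the WT mice, which were at 0. Markers of cells in which BC018473 was high also differed in these classes. The 10 macrophage markers summed to 0.226 to 2.77 CP10K in WT and 4.33 to 5.995 in SIRT7 KO B-like cells, to 0.399 to 2.43 and 2.98 to 6.49 in endothelial-like cells, to 0.161 to 0.941 and 0.943 to 2.96 in plasma B-like cells and to 4.48 to 4.77 and 4.92 to 6.87 in Cst3-led cells. The 9 neutrophil markers summed to 0.0391 to 0.236 CP10K in WT and 13.8 to 22.4 in SIRT7 KO plasma B-like cells, and overlapped in endothelial-like cells (0.0214 to 1.02 and 0.279 to 19.7). In B-like cells the neutrophil markers summed to 0 to 0.404 in WT and 0.417 to 3.81 in SIRT7 KO mice, and in Cst3-led cells they overlapped. The 9 T markers summed to 0.369 to 4.95 CP10K in WT and 6.42 to 8.08 in SIRT7 KO B-like cells. In plasma B-like cells the T markers summed to 0.0479 to 1.43 and 2.395 to 2.48, and they overlapped in endothelial-like and Cst3-led cells. The part of macrophages, neutrophils and T cells in the values of BC018473 was not tested.

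In both hepatocyte-like classes the levels of BC018473 overlapped between the genotypes. In hepatocyte-like 1 cells 9 UMIs were counted over the SIRT7 KO mice and SIRT7 KO mouse 3 had 0, and in hepatocyte-like 2 cells SIRT7 KO mouse 3 (0.0144 CP10K) was below WT mouse 2 (0.0266 CP10K). The share of cells with a UMI was 1.36%, 0.435% and 0% in hepatocyte-like 1 cells of SIRT7 KO mice 1 to 3, at median depths of 1133, 1290.5 and 1960.5 UMIs. In hepatocyte-like 2 cells the shares were 1.94%, 5.17% and 1.11% in SIRT7 KO mice against 0%, 0.980% and 0% in WT mice, so that by share every SIRT7 KO mouse was above every WT mouse, and thinned to 1000 UMIs they were 1.33%, 3.33% and 0% against 0%, with overlap. The ratio of summed UMIs in this class was 9.60, from 15 and 1 UMIs, with a counting interval of 1.48 to 404. The 9 neutrophil markers summed there to 0.0313 to 0.156 CP10K in WT and 0.269 to 12.99 in SIRT7 KO mice, and the macrophage markers overlapped. What part of these few molecules came from other cells was not tested.

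St6galnac2 followed the same order of genotypes. Over all cells 1, 1 and 1 UMIs were counted in WT mice 1 to 3, against 311, 246 and 26 in SIRT7 KO mice 1 to 3. T-like cells had the highest levels, 0.810, 1.26 and 1.1 CP10K in SIRT7 KO mice 1 to 3 and 0 in the WT mice, at least 40.8-fold higher over 220 UMIs. No T-like cell of 204, 155 and 250 in the WT mice had a UMI, which allows shares of up to 1.47%, 1.94% and 1.2%, while 9.30%, 18.9% and 22.6% of the cells of SIRT7 KO mice 1 to 3 had one. Thinned to 1000 UMIs these shares were 7.17%, 9.17% and 16.1%, the last from 31 cells. In macrophage-like cells the levels were 0, 0 and 0.0156 CP10K in WT mice and 0.336, 0.302 and 0.222 in SIRT7 KO mice. The ratio of summed UMIs there was 33.5, with a counting interval of 5.97 to 1328 since it rests on 1 WT molecule. Among mice with at least 20 cells, every SIRT7 KO mouse was also above every WT mouse in 4 more classes (plasma B-like, Cst3-led, B-like and endothelial-like), with SIRT7 KO levels between 0.05 and 0.206 CP10K. Only Cst3-led kept SIRT7 KO mouse 3, which had 0 UMIs in its few cells of the others. In plasma B-like cells WT mouse 1, left out with 12 cells, was at 0.0922 CP10K, above SIRT7 KO mouse 1 at 0.0676. The summed T markers were higher in SIRT7 KO mice without overlap in B-like and plasma B-like cells, and overlapped in endothelial-like and Cst3-led cells. The part of T cells in these values of St6galnac2 was not tested. In hepatocyte-like 2 cells 1 and 7 UMIs were counted in WT and SIRT7 KO mice and the mice overlapped. In hepatocyte-like 1 cells both genotypes were at or under the floor of 3 UMIs, with 0 and 1 UMI.

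A rule was chosen after the values of BC018473 and St6galnac2 were seen. It asks for at most 3 UMIs over the WT mice and at least 20 in every SIRT7 KO mouse. It was met by 3 of 16623 genes (0.018%), among them these genes by the way it was chosen. The reverse rule was met by 0 (0%). The same limit of 3 UMIs is stricter for the SIRT7 KO mice, with 19707350 UMIs in all against 8352695 in the WT mice. Nothing is read from these counts. The 3 genes are BC018473, St6galnac2 and Gzmc, a granzyme gene on chromosome 14 with 133, 131 and 23 UMIs in SIRT7 KO mice 1 to 3 and 1, 2 and 0 in WT mice 1 to 3.

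BC018473 and St6galnac2 lie 57.3 kb apart on opposite strands, and their levels moved together over the 44 pairs of a mouse and a class, with Pearson's r = 0.94 on the log2 scale. Of 10926 genes compared, each was the one most like the other. Next came Arhgdia (r = 0.62) and Platr17 (r = 0.61) for BC018473, and Gzmc (r = 0.77) and Klrb1f (r = 0.69) for St6galnac2. The points share mice and depth, and most of those from WT mice sit at 0 for both genes. Both genes were also chosen for the difference between the genotypes, which these points hold. No r within the SIRT7 KO mice alone is given, so nothing is read from r or from the rank. In the thinned macrophage-like cells of SIRT7 KO mouse 1, 19 of the 84 cells with St6galnac2 also had BC018473. St6galnac2 was seen there in 3.91% of the 486 cells with BC018473 and in 3.31% of the cells without it. In T-like cells the corresponding shares were 13.3% and 6.48% in mouse 1, 12.8% and 8.26% in mouse 2, and 50% and 8.0% in mouse 3, where only 6 cells had BC018473. No test was made of these shares, since cells of 1 mouse are not replicates.

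St6galnac1, which encodes a related sialyltransferase and starts 5.652 kb after BC018473, reached the limit for the fit only in T-like cells, with 0.128, 0.202 and 0 CP10K in SIRT7 KO mice 1 to 3 and 0 in the WT mice. Its log2 difference of 1.39 ± 0.63 (SE) did not pass the threshold (limma, adjusted p = 0.692). Of the other ST6GalNAc genes fitted in a class (1 to 4 per class) and of the 7 genes listed for O-glycan cores and other sialyltransferases, 0 were past the threshold in either direction in the 8 classes by limma, with 2 of 20 and 4 of 49 pairs of a gene and a class at an unadjusted p under 0.05. With voom on summed UMIs, St6gal1 passed in hepatocyte-like 1 cells (adjusted p = 0.0442). St6galnac3, which acts on sialylated glycoproteins and glycolipids, had 0.615 CP10K in WT and 0.307 in SIRT7 KO T-like cells (log2 difference -0.90 ± 0.37, adjusted p = 0.653).

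Arhgdia differed from these genes in being present in every class of both genotypes. Its 2 promoter windows in RefSeq (300 bases around a start, GRCm38.p6, minus strand) are shown because Arhgdia is the only 1 of the 5 genes with an entry in the promoter table used here. Capitals mark the GC box GGGCGG or its reverse complement CCGCCC. The windows are chr11:120581575-120581874, at the 5′ end of the gene, and chr11:120581198-120581497, with a start inside the gene.
Arhgdia promoter 1: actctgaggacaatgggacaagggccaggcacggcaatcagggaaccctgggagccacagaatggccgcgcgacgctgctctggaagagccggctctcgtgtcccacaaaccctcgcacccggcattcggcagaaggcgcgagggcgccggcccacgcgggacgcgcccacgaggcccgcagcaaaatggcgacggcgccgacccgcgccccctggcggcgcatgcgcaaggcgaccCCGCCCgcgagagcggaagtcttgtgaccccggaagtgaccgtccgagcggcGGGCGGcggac
Arhgdia promoter 2: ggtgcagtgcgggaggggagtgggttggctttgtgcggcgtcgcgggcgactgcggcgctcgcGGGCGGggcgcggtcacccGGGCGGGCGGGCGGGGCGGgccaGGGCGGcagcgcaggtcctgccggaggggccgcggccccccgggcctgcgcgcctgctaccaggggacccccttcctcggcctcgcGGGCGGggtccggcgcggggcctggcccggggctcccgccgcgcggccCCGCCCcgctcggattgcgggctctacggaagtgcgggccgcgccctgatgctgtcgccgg
The first window has 2 and the second 8 matches, some of them overlapping each other, and 35.66% of 32851 promoter windows hold at least 1 on either strand. The E-box CACGTG, the cAMP response element TGACGTCA, CCAAT and TATAAA, which 7.15%, 1.79%, 37.41% and 13.62% of the windows hold, were not matched in either. GC content was 72% and 82.7%, above that of 93.13% and 99.62% of the windows.

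In macrophage-like cells Arhgdia was at 3.31, 3.29 and 3.35 CP10K in WT mice 1 to 3 and at 6.71, 8.29 and 7.64 in SIRT7 KO mice 1 to 3. The WT mice lay within a narrow range and every SIRT7 KO mouse was far above it, with means of 3.32 ± 0.03 and 7.55 ± 0.79 (SD, n = 3 mice each). T-like cells had 1.81, 2.42 and 2.86 CP10K in WT mice and 3.79, 6.24 and 5.87 in SIRT7 KO mice. Cst3-led cells had 2.02, 2.86 and 3.40 against 5.12, 6.97 and 6.12 CP10K. No mice overlapped in these classes, and the same held for plasma B-like cells (0.486 and 0.839 against 1.57 and 2.58 CP10K), for B-like cells (1.67, 2.08 and 3.41 against 4.49 and 6.96 CP10K) and for endothelial-like cells (2.21 to 3.72 in 3 WT mice, 4.71 and 6.79 in 2 SIRT7 KO mice). In the hepatocyte-like classes the genotypes overlapped. Levels ran from 0.594 to 1.18 CP10K in WT and from 0.995 to 1.62 in SIRT7 KO mice for hepatocyte-like 1 cells, and from 0.230 to 0.788 and from 0.729 to 1.42 for hepatocyte-like 2 cells. The log2 difference lay between 0.52 in hepatocyte-like 1 and 1.58 in plasma B-like cells.

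The share of cells with an Arhgdia UMI moved with depth. Without thinning, all SIRT7 KO mice were above all WT mice in 3 of the 8 classes, and after thinning to 1000 UMIs in 6, all but T-like and hepatocyte-like 1. Shares of cells were worked out for few genes, so no value over all genes stands beside these counts. Nothing is read from them. In Cst3-led cells the shares were 59.2%, 71.4% and 55.5% in WT mice and 51.8%, 72% and 85.7% in SIRT7 KO mice, whereas the thinned shares were 14.3%, 36.7% and 24.8% against 40.1%, 49.0% and 39.6%. SIRT7 KO mouse 1 had a median of 1405 UMIs per Cst3-led cell and WT mice 1 and 2 had 4244 and 4067. In T-like cells the thinned share of SIRT7 KO mouse 1, 26.7%, was just below the 27.7% of WT mouse 3. Of all cells, 1136, 799 and 877 of the WT mice and 4584, 1939 and 524 of the SIRT7 KO mice were deep enough to be thinned.

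**Figure D2:**
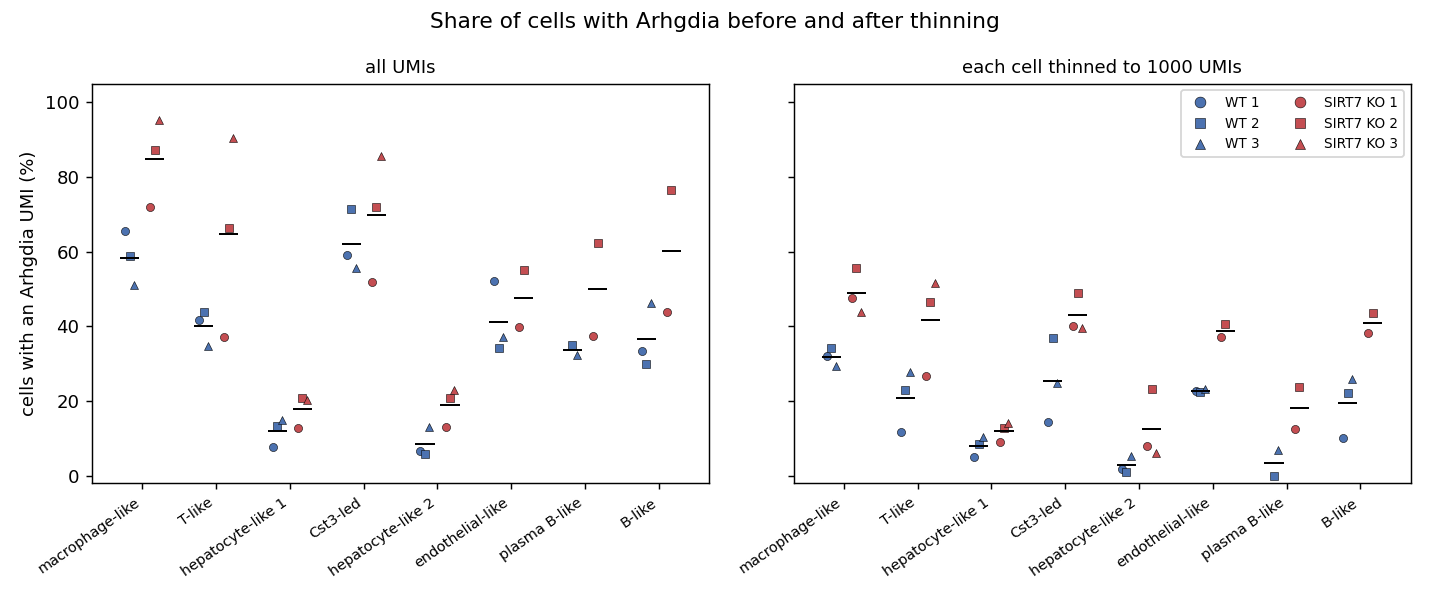
Percent of cells with at least 1 Arhgdia UMI per mouse and class, with all UMIs (left) and with each cell thinned to 1000 UMIs (right). Blue points are WT mice, red points are SIRT7 KO mice, the shape gives the mouse and the bar is the group mean. The red points lie above the blue ones in 3 classes on the left and in 6 on the right.

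The other gene of this inhibitor family that was measured, Arhgdib, which is known from blood cells and lies on another chromosome, had 6.75, 6.88 and 6.22 CP10K in WT and 5.29, 7.95 and 6.98 in SIRT7 KO T-like cells. The groups overlapped, with a log2 difference of 0.01 ± 0.20 (SE, limma, adjusted p = 0.997). In macrophage-like cells the difference was 0.14 ± 0.21 (adjusted p = 0.851), and Arhgdib passed the threshold in 0 of 8 classes by limma or with voom, with 1 at an unadjusted p under 0.05.

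The measured gene before Arhgdia is P4hb, which encodes protein disulfide isomerase of the endoplasmic reticulum and lies 4.851 kb away. In 6 of the 8 classes, all but B-like and hepatocyte-like 1, its level in every SIRT7 KO mouse was above that in every WT mouse. Over all genes fitted, the share with this order ran from 4.25% in Cst3-led to 25.5% in plasma B-like cells over these classes. Nothing is read from the count. In T-like cells P4hb was at 0.938, 0.743 and 1.13 CP10K in WT mice and at 1.72, 1.68 and 2.60 in SIRT7 KO mice (log2 difference 1.05 ± 0.28, limma, adjusted p = 0.303). Levels in hepatocyte-like 2 cells were 1.48, 1.29 and 1.82 against 7.0, 2.74 and 5.24 (1.59 ± 0.40, adjusted p = 0.136), and P4hb passed the threshold in 0 of 8 classes by limma and in hepatocyte-like 2 cells with voom (adjusted p = 0.0313). The measured gene after Arhgdia, Alyref (an RNA export factor, 10.5 kb away), had log2 differences from -0.25 to 0.58, with a smallest adjusted p of 0.544 over the 8 classes.

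Cd7 was highest in T-like cells, where WT mice 1 to 3 had 2.32, 2.12 and 1.56 CP10K and SIRT7 KO mice 1 to 3 had 5.37, 4.37 and 8.51. The SIRT7 KO mice were all above the WT mice, with means of 6.08 ± 2.16 and 2.0 ± 0.39 (SD, n = 3). The share of T-like cells with a Cd7 UMI was 28.4%, 25.8% and 14.8% in WT and 33.6%, 38.0% and 41.9% in SIRT7 KO mice, and after thinning 16.2%, 17.1% and 12.6% against 27.6%, 24.8% and 32.3%. In hepatocyte-like 1 cells, which should lack the gene, the unthinned share was at most 1.17%, and median depths there were 1019.5 to 1960.5 UMIs against 1072.5 to 3241 in T-like cells.

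The makeup of the T-like class moved with Cd7. It held both T and NK cells, and the summed level of the 9 NK markers, all of them detected, was 19.4 to 30.1 CP10K in WT and 33.7 to 65.2 in SIRT7 KO mice. The 5 markers of cycling cells summed to 1.03 to 3.39 CP10K in WT and 3.99 to 16.5 in SIRT7 KO mice. At the finer clustering resolution of 1.0, the cluster led by Gzma, Ncr1 and Ccl5 took 5.88%, 11.6% and 8.8% of the T-like cells of WT mice 1 to 3 and 32.7%, 17.8% and 41.9% of those of SIRT7 KO mice 1 to 3. Within that NK-led cluster Cd7 was at 7.89, 10.4 and 5.30 CP10K in WT and at 11.7, 10.6 and 17.7 in SIRT7 KO mice, from 12, 18 and 22 WT cells and 225, 112 and 13 SIRT7 KO cells. The genotypes did not overlap there, although SIRT7 KO mouse 2 was close to WT mouse 2. Within the cluster led by Cd3d, Cxcr6 and Trbc2, Cd7 was at 1.99, 0.995 and 1.04 CP10K in WT and at 1.88, 2.72 and 1.48 in SIRT7 KO mice, and SIRT7 KO mice 1 and 3 fell within the WT range. Another, smaller cluster, led by Hmgb2, Stmn1 and Hist1h2ap, known from dividing cells, held 3, 6 and 15 WT cells and 74, 189 and 2 SIRT7 KO cells, with Cd7 at 0, 1.905 and 3.485 CP10K in WT and 4.52, 3.47 and 5.08 in SIRT7 KO mice. The genotypes overlapped there, by SIRT7 KO mouse 2 and WT mouse 3. Arhgdia and St6galnac2 did not overlap inside the NK-led cluster or the one led by Cd3d. In the NK-led cluster Arhgdia was at 0.876 to 1.72 CP10K in WT and 3.71 to 5.67 in SIRT7 KO mice, and St6galnac2 was at 0 and at 1.05 to 2.0. No share over all genes stands beside the finer clusters, some with few cells per mouse, so nothing is read from overlap or its absence there. The part of the makeup of the class in the values of these genes was not tested.

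**Figure D3:**
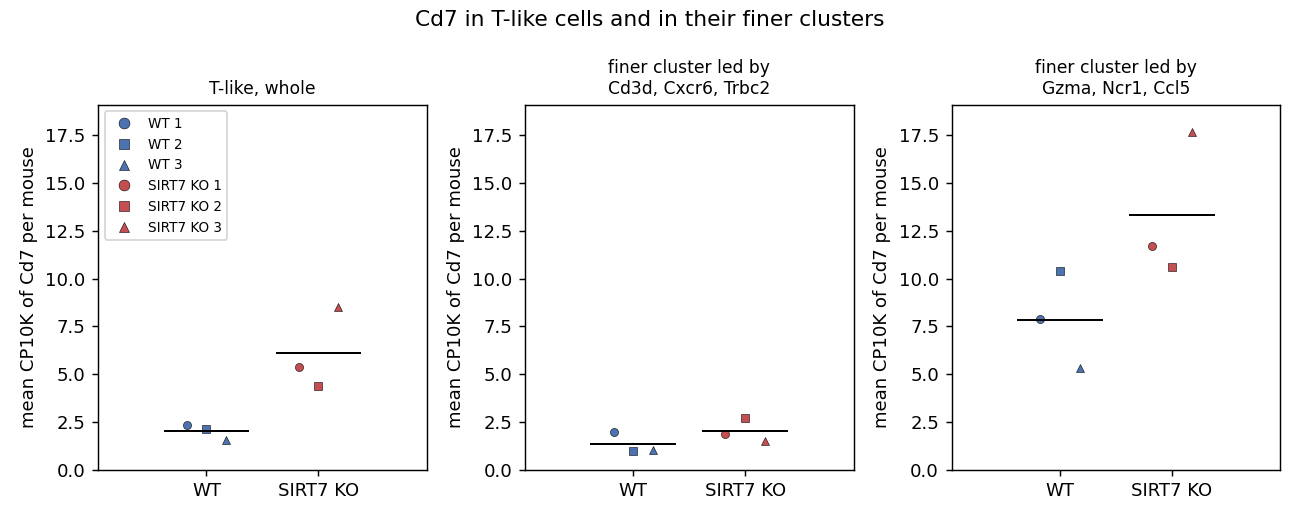
Mean CP10K of Cd7 per mouse (vertical axes, the same linear scale from 0) in the whole T-like class and in its 2 largest finer clusters, with the smaller one led by Hmgb2 not drawn. Blue points are WT mice, red points are SIRT7 KO mice, the shape gives the mouse and the bar is the group mean. The red points lie above the blue ones in the left and right panels, and SIRT7 KO mice 1 and 3 lie within the WT range in the middle panel.

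In Cst3-led cells Cd7 went the other way, with 1.0, 1.01 and 0.752 CP10K in WT and 0.647, 0.745 and 0.329 in SIRT7 KO mice, a log2 difference of -0.70. Every SIRT7 KO mouse was below every WT mouse, the closest pair being 0.745 and 0.752 CP10K. The result depended on how cells and mice were weighed. With UMIs summed within each mouse the levels were 0.673, 0.519 and 0.455 CP10K in WT and 0.544, 0.720 and 0.339 in SIRT7 KO mice, with overlap. The ratio of UMIs summed over the mice of a genotype, which weighs mice by their depth, was 1.13 in favour of SIRT7 KO (counting interval 0.820 to 1.56). The 8 monocyte markers in this class summed to 24.4 to 29.4 CP10K in WT and 32.2 to 52.3 in SIRT7 KO mice, and the 5 basophil markers to 0.193 to 4.18 and 0.315 to 6.46. The part of these cells in the result was not tested.

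In B-like cells Cd7 was at 0.569, 1.87 and 2.0 CP10K in WT and at 3.31 and 2.98 in SIRT7 KO mice 1 and 2, with no overlap. The makeup of this class differed between the genotypes too. Its 8 B markers summed to 39.0 to 66.2 CP10K in WT and 18.3 to 19.2 in SIRT7 KO mice, the 9 T markers to 0.369 to 4.95 and 6.42 to 8.08, and the 9 NK markers to 0 to 1.30 and 2.76 to 2.86. Inside the finer cluster led by Klk1, Cox6a2 and Siglech, of 6, 5 and 17 WT cells and 114, 53 and 1 SIRT7 KO cells, Cd7 was at 2.85, 7.48 and 4.33 CP10K in WT and 5.29, 4.09 and 2.35 in SIRT7 KO mice, and the genotypes overlapped. Inside the one led by Cd79a and Ebf1, Cd7 was at 0, 0 and 0.612 CP10K against 0.270, 0.514 and 0, with overlap as well.

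In macrophage-like cells the mice overlapped too, at 0, 0 and 0.0784 against 0.203, 0.336 and 0.0373 CP10K. Cd7 was at 0 in the hepatocyte-like 2 cells of the WT mice and at 0.197, 0.519 and 0.133 CP10K in SIRT7 KO mice, a share of 1.48% to 5.17% of cells. In that class the T markers summed to 0.252 to 1.76 CP10K in WT and 0.379 to 4.06 in SIRT7 KO mice, and the NK markers to 0.0853 to 2.32 and 0.167 to 3.75. Both sums overlapped between the genotypes in this class. The 26 Cd7 UMIs of SIRT7 KO mouse 3 there came from 4 of 271 cells. Thinned to 1000 UMIs, the shares with Cd7 were 2.33%, 0% and 0.746% in SIRT7 KO mice 1 to 3 against 0% in WT mice, with overlap. In endothelial-like cells the SIRT7 KO mice (0.654 and 0.554 CP10K) were above the WT mice (0, 0 and 0.417), and the NK markers summed to 0 to 3.10 CP10K in WT and 3.52 to 4.08 in SIRT7 KO mice, while the T markers overlapped (0 to 5.29 and 2.31 to 4.62). For plasma B-like cells Cd7 was at 0 and 0.0497 against 0.201 and 0.496 CP10K, beside NK markers at 0.238 to 0.539 against 1.57 to 2.06 and T markers at 0.0479 to 1.43 against 2.395 to 2.48. WT mouse 1, left out of that class with 12 cells, was at 0.410 CP10K. After thinning, every SIRT7 KO mouse was above every WT mouse in the share of cells with Cd7 in 2 classes, T-like and plasma B-like, against 5 without it. These counts too have no value over all genes beside them, and nothing is read from them. The part of T and NK cells in the values of Cd7 was not tested in any class.

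Sectm1a, whose protein is a ligand of CD7 and whose gene starts 27.99 kb after Cd7, was fitted in macrophage-like cells only, with 0.126 CP10K in WT and 0.107 in SIRT7 KO mice (log2 difference -0.18 ± 0.43, limma, adjusted p = 0.913). Of the listed partners and T or NK surface genes (Sectm1a, Sectm1b, Cd2, Cd5, Cd27, Cd28 and Cd48), 0 passed the threshold in any of the 8 classes by limma or with voom, with 2 of 29 pairs of a gene and a class at an unadjusted p under 0.05. In T-like cells the median log2 difference of the 5 of them that were fitted was -0.33, beside -0.06 over all genes. The genes whose pattern over mice and classes was most like that of Cd7 were Klrd1 (r = 0.91), Tbc1d10c (r = 0.88) and Ramp1 (r = 0.87), over 44 points.

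Cygb was seen in few molecules, with 2, 5 and 5 over all cells of WT mice 1 to 3 and 70, 51 and 31 of SIRT7 KO mice 1 to 3. In Cst3-led cells 0 UMIs were counted in the WT mice and 20, 15 and 3 in SIRT7 KO mice, at 0.236, 0.212 and 0.137 CP10K, at least 7.14-fold higher. The shares were 2.95%, 2.15% and 6.12% of the Cst3-led cells of SIRT7 KO mice, while 0 of 49, 0 of 49 and 0 of 227 WT cells allow shares of up to 6.12%, 6.12% and 1.32%. The 10 markers of stellate cells, from which Cygb is known in liver, summed to 0.0735 to 0.738 CP10K in WT and 0.354 to 0.975 in SIRT7 KO Cst3-led cells, with overlap. In macrophage-like cells Cygb was at 0, 0 and 0.0128 against 0.0455, 0.0436 and 0.0624 CP10K, and in T-like cells at 0 against 0.106, 0.0563 and 0.0354, where SIRT7 KO mouse 3 had 1 UMI. After thinning, every SIRT7 KO mouse was above every WT mouse in 1 of these 3 classes, Cst3-led. Nothing is read from this count, which has no value over all genes beside it. The remaining 5 classes overlapped, and in hepatocyte-like 1 cells the WT mice held the 3 UMIs and the SIRT7 KO mice 0. In the 39 stellate-like cells, too few to compare, Cygb was at 0, 1.68 and 14.7 CP10K in WT mice (2, 12 and 1 cells) and at 0, 5.67 and 5.60 in SIRT7 KO mice (7, 6 and 11 cells). Of Mb and Ngb, the other globin genes listed, none met the limit for the fit in a class.

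The 5 genes differed in which classes held most of them. Arhgdia was highest on average in macrophage-like (5.43 CP10K), Cst3-led (4.42), endothelial-like (4.19), T-like (3.83) and B-like cells (3.72) and at 0.737 to 1.37 in the remaining classes. Within mice it was higher in B-like than in plasma B-like cells by 1.71 ± 0.30 (SD) on the log2 scale, in 4 of 4 mice, and in hepatocyte-like 1 than in hepatocyte-like 2 cells by 0.59 ± 0.45, in 6 of 6. Cd7 was at 4.04 CP10K in T-like and 2.15 in B-like cells, an order that 4 of 5 mice followed. BC018473 was at 1.07 in macrophage-like and 1.03 in T-like cells, an order that 2 of the 3 SIRT7 KO mice followed, the WT mice being at 0 in both classes. Adjacent classes in the order of each gene were compared within mice by exact permutation (sign flips, two-sided). The smallest p is 0.0313 with 6 mice, 0.0625 with 5 and 0.125 with 4, and after adjustment over 35 pairs this design could not pass the threshold, so nothing is read from that test.

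The leading class minus the next is given for each genotype as a description, on the log2 scale with the SD between mice. In SIRT7 KO mice alone it was 1.70 ± 0.48 for St6galnac2 (T-like over macrophage-like), 0.62 ± 0.10 for Cd7 (T-like over B-like) and 0.32 ± 0.07 for Arhgdia (macrophage-like over Cst3-led). For BC018473 (macrophage-like over T-like) and Cygb (Cst3-led over endothelial-like) the values were 0.13 ± 0.90 and 0.61 ± 2.08. Only SIRT7 KO mice 1 and 2 had enough B-like and endothelial-like cells, so the values of Cd7 and Cygb rest on 2 mice. The classes were ordered by levels that include these mice, so nothing is read from the size of a value beside its SD. In WT mice alone the values of Cd7 and Arhgdia were 0.59 ± 1.2 and 0.29 ± 0.37. The genes most like Arhgdia over the 44 points were Ucp2 (r = 0.89), Gnai2 (r = 0.88) and Cdc42 (r = 0.88), and those most like Cygb were BC018473 (r = 0.59), Socs3 (r = 0.57) and Ifit2 (r = 0.57). These values of r, and those of Cd7, also hold the difference between the genotypes for which the genes were chosen.

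The neighbours were tested in the same fit as all genes. Between 90 and 135 of the 194 neighbours met the limit for the fit in a class, 941 pairs of a gene and a class in all, and 7 pairs passed the threshold (limma, adjusted p under 0.05), each of them Pcyt2 and each lower in SIRT7 KO mice. Of all genes fitted, 0.731% passed in either direction in B-like, 0.0782% in plasma B-like, 0.346% in endothelial-like, 0.223% in hepatocyte-like 2, 0.479% in hepatocyte-like 1, 0.0311% in Cst3-led, 0.13% in T-like and 0.201% in macrophage-like cells. At an unadjusted p under 0.05 the neighbours gave 8 to 23 genes per class, 6.78% to 18.4% of those fitted, beside 5.89% to 10.6% of all genes. The share of the neighbours was above that of all genes in each of the 8 classes. It was 10.7% beside 10.6% in hepatocyte-like 1, 12.5% beside 7.10% in T-like and 18.4% beside 10.1% in hepatocyte-like 2 cells. No set test was made of these shares. The median log2 difference of the neighbours was 0.02 beside -0.03 for all genes in macrophage-like cells, -0.02 beside -0.06 in T-like cells and 0.31 beside 0.20 in hepatocyte-like 2 cells. Between BC018473 and Arhgdia, 35 to 52 genes were fitted per class, 361 pairs of a gene and a class in all. By limma 0 of them passed, with 53 of the 361 at an unadjusted p under 0.05, and 4 passed with voom. Of all genes, 5.89% to 10.6% per class were under that unadjusted limit, and nothing is read from the 53. The median log2 difference of the genes between BC018473 and Arhgdia depended on the class. It ran from -0.13 in hepatocyte-like 1 (all genes -0.10) to 0.64 in hepatocyte-like 2 cells (all genes 0.20). In B-like cells it was 0.42 beside 0.18 for all genes. Single values in T-like cells ran from -1.38 to 1.72 around a median of 0.04.

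Pcyt2 encodes an enzyme of phosphatidylethanolamine synthesis and lies 0.436 kb from Sirt7. It was at 14.2, 15.7 and 14.2 CP10K in hepatocyte-like 2 cells of WT mice and at 0.534, 0.351 and 0.174 in SIRT7 KO mice (log2 difference -5.30 ± 0.40, limma, adjusted p = 4.03e-08). It passed the threshold in 7 classes and had an adjusted p of 0.316 in plasma B-like cells. Mafg, a small Maf transcription factor gene that overlaps the other end of Sirt7, had log2 differences from -0.47 to 2.60, with a smallest adjusted p of 0.591 over the 8 classes. Of the sirtuin genes, Sirt7 passed in 3 classes as lower (macrophage-like, T-like and hepatocyte-like 2) and the other 6 in 0 by limma or with voom, with 2 pairs of a gene and a class at an unadjusted p under 0.05 by limma.

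**Figure D4:**
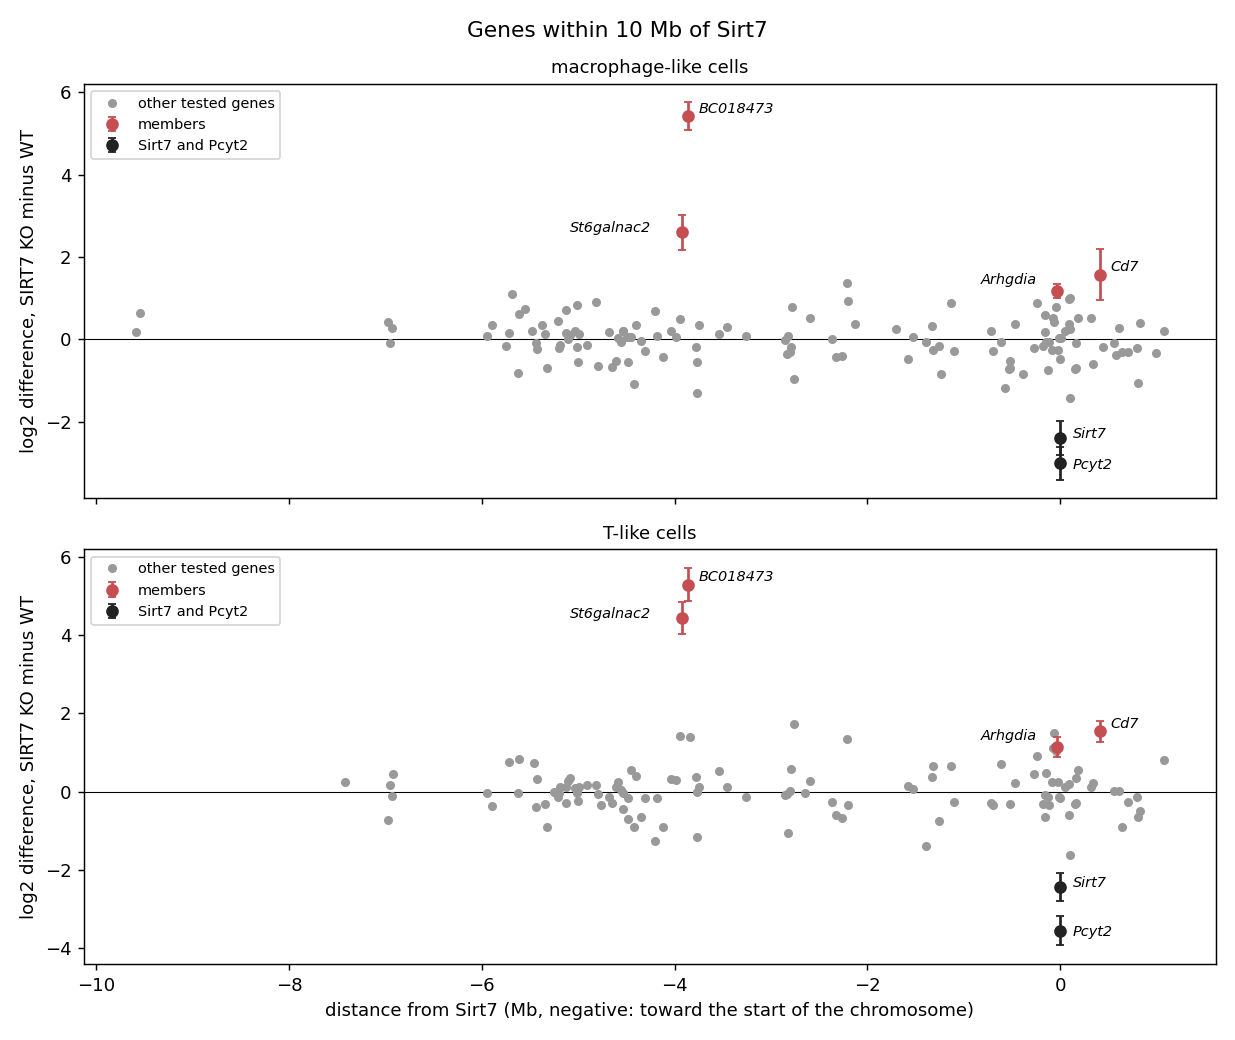
Log2 difference in level between SIRT7 KO and WT mice (vertical axes) against the distance from Sirt7 in Mb (horizontal axis) for each fitted gene within 10 Mb, in macrophage-like (top) and T-like cells (bottom). Red points are the chosen genes, black points are Sirt7 and Pcyt2, both with bars of 1 SE, and grey points are the other genes. In T-like cells BC018473 and St6galnac2 stand at 5.29 and 4.44, about 4 Mb from Sirt7, and no grey point is above 1.72 there or above 1.38 in macrophage-like cells.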

How the data were processed

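RNA of single liver cells was measured in 3 WT and 3 SIRT7 KO mice. The authors deposited the natural log of (counts per 10000 + 1), made with Cell Ranger 6.0.0 (submitters' processing notes, mm10) and scanpy after removal of cells with fewer than 500 genes or over 5% mitochondrial genes, per the study's methods. The table was mapped to mice by barcode ending. UMIs were worked back from the values, and all 12961041 values above 0 were whole within 0.02. Scanpy 1.11.5 (Python 3.11.15) gave 1000 variable genes without the 200 genes around Sirt7, 50 components, 3 neighbours per mouse and, with leidenalg 0.10.2, clusters at a resolution of 0.35. Of 20 random starts, which gave 9 to 11 clusters, the partition of highest quality was used, a rule adopted after clusterings from 1 start had been seen and blind to genotype. Clusters were named from marker lists, which can differ from the study's own names, or after their leading gene where the top 10 genes held more markers of another list. Hepatocyte-like 1 scored highest on the red cell list (1.963, then 1.48 for pericentral hepatocytes) and was led by Hbb-bs. It was named by a level of Alb, the albumin gene, above the mean over all cells. Hepatocyte-like 2 scored highest on the periportal list but held no listed marker among its top 10 genes. The scrublet caller marked 46 of 11610 cells (0.396%), under the 0.5% at which it counts as working, so doublets were not removed.

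Levels entered the fit as log2(mean CP10K + 0.05), for genes whose mean reached 0.05, with limma 3.58.1 (R 4.3.3, eBayes with trend and robust, two-sided, SIRT7 KO minus WT), p-values adjusted by Benjamini-Hochberg over the genes fitted in that class, and 0.05 as the limit for a call. Classes needed 20 cells in each of 2 mice per genotype, so endothelial-like and B-like cells had 3 WT and 2 SIRT7 KO mice and plasma B-like cells 2 of each. The study tested single cells, and here the mouse is the replicate, with groups and mouse numbers from the labels. P-values measure the spread between these mice. Exact binomial intervals (95%) and limits from a count of 0 (3 counts) cover counting error only.

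The 5 genes and all lists were chosen with earlier results of these data known. The genes named are the 5, Sirt7, genes beside them, genes of the role lists, neighbours past the threshold, and for each of the 5 the 3 most like by Pearson's r. A granzyme gene and the genes next to each of the 5 were named after their values were seen. Of the 5 genes, 1 matched the RefSeq promoter table. One list of related genes is not reported here.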

Additional observations from a re-analysis of the deposited data

Results flagged for a closer look

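A class with too few cells to be compared also held 2 of the genes. In neutrophil-like cells (23, 9 and 15 in WT and 217, 21 and 17 in SIRT7 KO mice) BC018473 averaged 2.74 CP10K over the SIRT7 KO mice, at 2.55, 2.51 and 3.16, and was at 0 in the WT mice. Cygb averaged 0.0702 CP10K there, from 5 UMIs, against 0. Since those 5 are of 654360 UMIs and the WT cells held 74721 in all, the bound for Cygb is at least 0.190-fold, and no difference in Cygb was detectable at this depth. For BC018473 the level was at least 7.04-fold higher over 185 UMIs. These values are given because every SIRT7 KO mouse was above every WT mouse in cells that no comparison used. No test was made.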

How the results depend on the processing

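Mean log2 differences over the classes moved with the scale. For BC018473, St6galnac2, Cd7, Arhgdia and Cygb in turn they were 0.37, 0.12, 0.21, 0.65 and 0.032 as means of logged values. For BC018473, St6galnac2, Cd7 and Cygb they were 1.17, 0.45, 0.55 and 0.16 with a pseudocount of 0.5, and 5.30, 3.43, 2.26 and 1.67 with 0.01. At a resolution of 1.0 Cd7 was at 0.94 and Cygb at 0.90, with the genes around Sirt7 used in the clustering St6galnac2 was at 1.62 and Cygb at 0.85, and with summed UMIs Cygb was at 0.88. Mean differences in share, in percentage points, were 7.41, 2.45, 3.87 and 0.721 for BC018473, St6galnac2, Cd7 and Cygb when thinned to 1000 UMIs, 3.68, 1.61, 2.99 and 0.559 at 500 UMIs, and 5.51, 0.555, 2.51 and 0.0962 with at least 2 UMIs. For Cd7 the share difference was 1.45 at a resolution of 1.0, 3.98 with the genes around Sirt7 in the clustering, and 4.04 to 7.55 with 1 mouse left out (without SIRT7 KO mouse 2 and without SIRT7 KO mouse 1). No direction of these means changed. The leading class minus the next was 0.06 for BC018473 and 0.06 for Cygb, and with 1 mouse left out, an alternative chosen after seeing the data, it ran from -0.14 to 0.22 and from -0.44 to 0.31, turning without SIRT7 KO mouse 1. Clusters from 1 start, also chosen after seeing the data, gave 3.19, 1.80, 1.45, 1.09 and 0.85 for the 5 genes in the first order, and 6 neighbours past the threshold.

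Neighbours past the threshold numbered 7 as reported, 12 with voom on summed UMIs and 4 to 17 with 1 mouse left out (4 without WT mouse 2, 11 without WT mouse 3, 17 without SIRT7 KO mouse 1). Pcyt2 passed in 4 to 6 classes with 1 mouse left out. Sirt7 passed in 3 classes as reported, in 1 without a filter on the mean or with a pseudocount of 0.01, in 5 with voom, in 1 without WT mouse 3 and in 0 without WT mouse 1 or WT mouse 2. Related genes, with alternatives chosen after seeing the data, went from 0 to 3 with voom and to 0 to 8 with 1 mouse left out (8 without WT mouse 3, and P4hb in Cst3-led cells without SIRT7 KO mouse 1). The cause was not tested.

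With the mouse number as a block, 10 neighbours and 1 related gene passed by limma, and plasma B-like cells could not be fitted. The numbers do not pair the mice: of 20 correlations of deviations between same-numbered mice, 0 were over 0.1 (-0.167 to 0.0862). An alternative without doublets was not run, because the doublet caller did not work.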
